A study of Mus musculus with 18 samples.

Results

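The genes described here encode the nuclear receptors PPARα, PPARδ and PPARγ (Ppara, Ppard and Pparg), their dimer partners RXRα, RXRβ and RXRγ (Rxra, Rxrb and Rxrg) and the coactivators PGC1α and PGC1β (Ppargc1a and Ppargc1b). They were taken by symbol from a liver RNA-seq table, and all 8 were among its 19057 genes. Their levels are given in RPKM, read numbers scaled by gene length and by the mapped reads of each library. The table covered 18 libraries of livers of ICR mice, an outbred stock, aged 10 weeks, in 6 groups of 3. Con mice were controls given the regular diet and saline, and A10 mice were labelled with 10 mg/kg of alginate oligosaccharide (AOS), a short-chain product of brown algae. HS mice had a high-fat diet and streptozotocin (STZ), a toxin of pancreatic beta cells, and HS+A10 mice are labelled with 10 mg/kg AOS in addition. For A10 and HS+A10, known from the labels only, the route and length of dosing and, for A10, the diet are not given in the sources used here, which limits what HS+A10 against A10 compares. A10-FMT and Con-FMT mice had the high-fat diet and STZ as well, and were given intestinal microbiota pooled from AOS-dosed donors or from control donors. The 4 groups other than Con and A10 thus share the diet and the toxin, which were always given together and cannot be told apart. The labels do not say that replicates came from separate mice, so p-values measure the spread between these libraries only.

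PPARs are receptors that bind fatty acids and their derivatives and regulate genes as dimers with an RXR, which itself can bind 9-cis retinoic acid. PPARα is the main PPAR of hepatocytes and drives fatty acid oxidation and ketogenesis in fasting. PPARγ is best known from adipocytes, where it promotes fat storage, and is found at higher levels in fatty livers, and PPARδ is present in most tissues. PGC1 proteins do not bind DNA themselves but are recruited by PPARs and other factors and promote oxidative metabolism.

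The group was proposed from an earlier analysis of these libraries in which the difference of Ppard between HS and Con was already known. Ppard was therefore chosen on these HS and Con values, and none of its differences that use Con or HS libraries is tested here. For all members the HS and Con values are given as a description. The comparisons of HS+A10 with A10 and of A10-FMT with Con-FMT use neither Con nor HS libraries.

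Sequences upstream of a start of 4 members described closely are shown first. For Ppard and Ppara it is the only window of the table, and for Rxra and Rxrg the window that holds the motif marked below, while their other window, nearer the 5′ end of the gene, holds none. Each run is the 250 bases before a transcript start, 5′ to 3′, from the RefSeq table for GRCm38.p6. Capitals mark AGGTCA, the core that RXR dimers bind as a repeat, or its reverse complement.
Ppard (chr17:28232504-28232753, + strand): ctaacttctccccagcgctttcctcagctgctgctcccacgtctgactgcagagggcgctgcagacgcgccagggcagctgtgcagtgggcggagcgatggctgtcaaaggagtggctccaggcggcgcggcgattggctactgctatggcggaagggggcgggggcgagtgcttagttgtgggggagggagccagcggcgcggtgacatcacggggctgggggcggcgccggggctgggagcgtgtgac
Ppara, start inside the gene (chr15:85735526-85735775, + strand): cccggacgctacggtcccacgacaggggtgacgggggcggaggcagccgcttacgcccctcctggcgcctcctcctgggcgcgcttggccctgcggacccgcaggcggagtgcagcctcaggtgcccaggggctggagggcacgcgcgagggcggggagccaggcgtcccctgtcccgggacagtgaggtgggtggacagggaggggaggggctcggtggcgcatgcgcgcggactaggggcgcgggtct
Rxra, start inside the gene (chr2:27709042-27709291, + strand): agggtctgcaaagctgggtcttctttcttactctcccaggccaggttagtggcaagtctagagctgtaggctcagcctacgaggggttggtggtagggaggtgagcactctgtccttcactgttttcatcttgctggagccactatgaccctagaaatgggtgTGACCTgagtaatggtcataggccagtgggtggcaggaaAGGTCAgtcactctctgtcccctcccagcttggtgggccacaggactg
Rxrg, start inside the gene (chr1:167618015-167618264, + strand): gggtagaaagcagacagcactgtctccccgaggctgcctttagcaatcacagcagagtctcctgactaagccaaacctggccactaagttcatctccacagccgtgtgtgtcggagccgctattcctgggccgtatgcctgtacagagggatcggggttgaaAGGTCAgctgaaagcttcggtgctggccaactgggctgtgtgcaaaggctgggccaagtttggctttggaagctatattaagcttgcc
The table held 12 such windows for 7 of the 8 members and none for Ppargc1b. AGGTCA, on either strand, was present in 4 of the 12 windows, of Pparg (2 of its 3 starts), Rxra and Rxrg (1 of 2 starts each), against 14% of 32851 windows of all genes. In the Rxra window it lay at bases 164 (reverse strand) and 203, and in the Rxrg window at base 163. The clock motif CACGTG (E-box) was in 0 of 12 windows, against 6.02% of all, and the D-box TTATGTAA in 0 of 12, against 0.819%. These are matches of letters and no evidence of binding.

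Ppara spans chr15:85734983-85802819 on the GRCm38 annotation, Ppard chr17:28232700-28301474, Pparg chr6:115360951-115490399, Rxra chr2:27676440-27762957, Rxrb chr17:34031812-34038399, Rxrg chr1:167598384-167639623 and Ppargc1a chr5:51454250-51567726. Rxra was the most abundant member, with a mean of 77.2 RPKM over the 18 libraries. Ppara followed at 25.4 RPKM, Rxrb at 9.90, Ppard at 6.13, Pparg at 3.54, Rxrg at 3.40, Ppargc1b at 1.20 and Ppargc1a at 0.87. Of the 8, the 7 other than Ppargc1a had a mean of at least 1 RPKM and were tested, among 10204 genes. Ppargc1b passed through HS+A10 and A10-FMT, with means of 1.87 and 1.77 RPKM, against 0.79 to 1.07 RPKM in the other groups. Between the lowest and highest group mean, Ppard varied 9.18-fold, Rxrg 2.98-fold, Ppara 2.52-fold and Rxrb 1.26-fold.

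**Figure D1:**
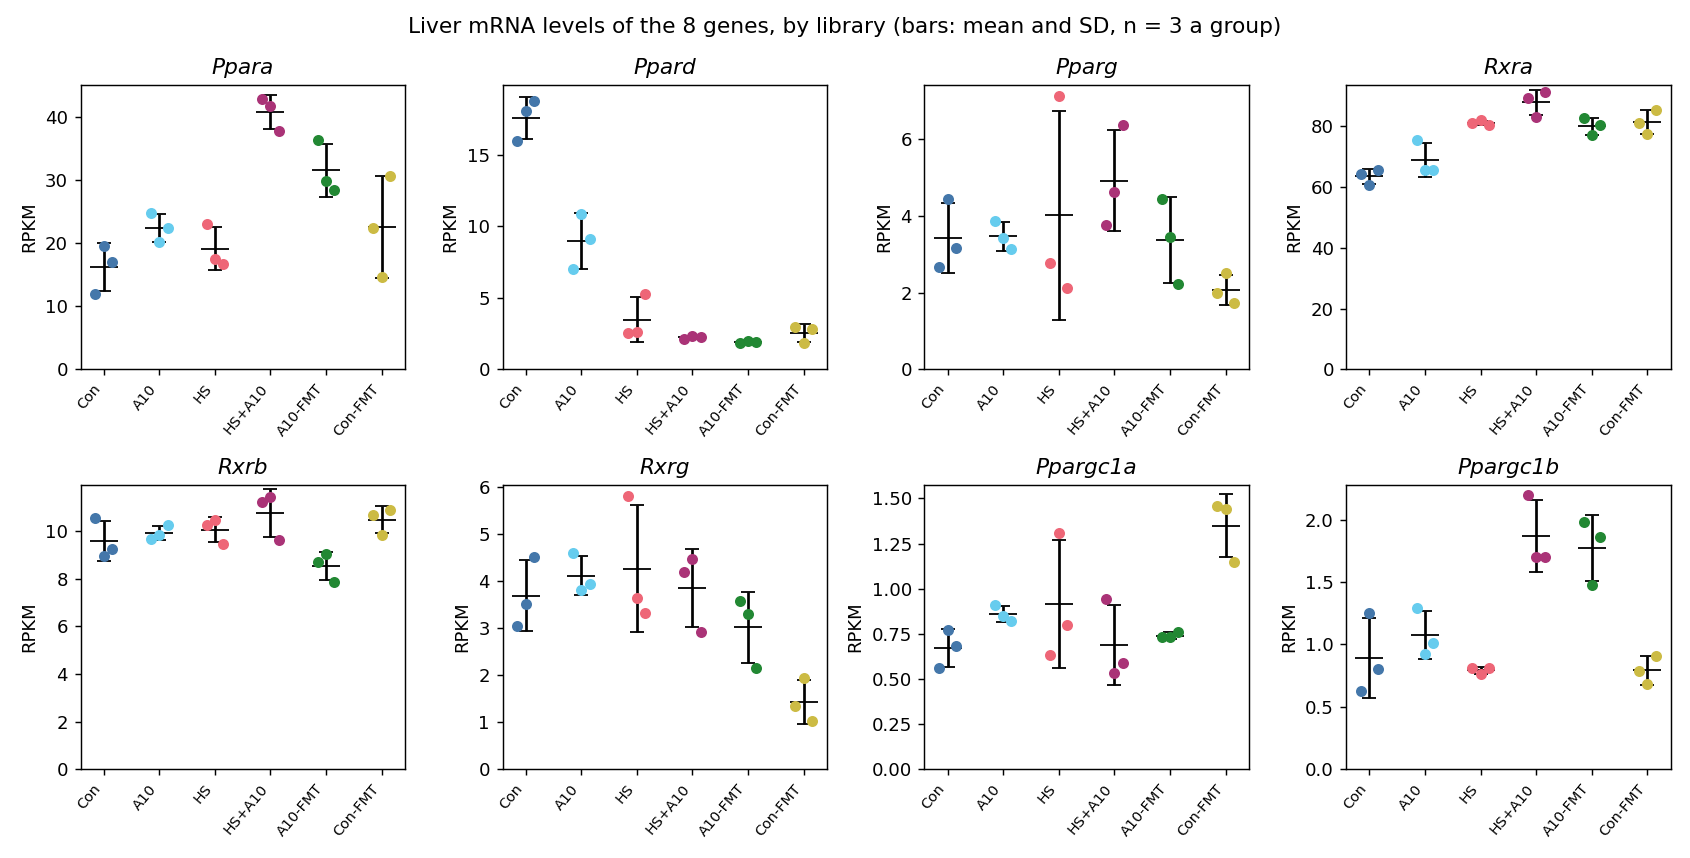
Level in RPKM (vertical axes, each from 0) of the 8 genes in the 6 groups; each point is a library, the line the mean and the bar the SD of 3 libraries. Ppard lay at 7.0 RPKM or above in the Con and A10 libraries and at 5.29 or below in the others, and Ppargc1b at 1.48 or above in HS+A10 and A10-FMT and at 1.29 or below in the others.

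Several libraries stood apart. In Con-FMT replicate 3 the summed level of 7 pancreatic acinar genes was 11874 RPKM, against at most 2.27 in the other 17 libraries, and that of 5 adipocyte genes 15.3 RPKM. The adipocyte sum was 1.55 to 2.61 RPKM in the HS+A10 libraries and at most 0.47 in the 14 others. In HS+A10 it was mostly Cfd (1.33 to 2.61 RPKM), with Adipoq, Lep, Plin1 and Retn each at most 0.14 RPKM. Where the other Con libraries differed by more than 1 on the log2 scale, Con replicate 3 lay between them in 98.6% of 140 genes, and A10 replicate 3 did so in 96.3% of 135 genes. The same share was 6.52% to 74.4% for the other 16 libraries. Whether Con replicate 3 and A10 replicate 3 are independent of the other libraries of their groups was not tested. If they are not, the spread within Con and A10 is understated and p-values may be too small. The 5 hepatocyte markers summed to 31301 to 54376 RPKM over the 18 libraries and skeletal muscle markers to at most 0.19. The stellate cell sum was highest in HS (112 to 175 RPKM, against 72.0 to 122 elsewhere). It was mostly Dcn, while Lrat was highest in HS+A10 (2.22 to 3.02, against 1.58 to 2.12 in HS). The erythroid sum was also highest in HS (2885 to 10038, against 875 to 3618 elsewhere). It was mostly Hba-a1, while Alas2 was not highest there (78.9 to 125, against 119 to 143 in Con-FMT). Endothelial markers were highest in HS+A10 (53.0 to 64.8, against 29.4 to 47.9 elsewhere). Kupffer cell markers were lowest in A10-FMT (41.7 to 51.0, against 47.0 to 105 elsewhere), and cholangiocyte and lymphocyte markers did not pass 7.14 and 4.05 RPKM. The part of these cells in the members' levels was not tested. In bulk liver, fewer cells of a type and less RNA per cell cannot be told apart. The number of reads is unknown, and depth relative to the mean of all libraries, from the steps between low values, was 0.961 to 1.031.

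Differences are on the log2(RPKM + 1) scale, which understates those of low genes. A gene counts as called where limma gave it an adjusted p under 0.05 over all 10204 genes. The median difference of all genes was 0.14 in HS against Con, -0.16 in A10-FMT against HS and -0.12 in Con-FMT against HS, and within 0.07 of 0 in the other comparisons. Called genes were 89.4% higher in HS against Con, but 45.0% with libraries scaled to equal medians and 55.5% with quantile normalization. For the other comparisons this share and its values under both scalings were 9.03%, 55.3% and 51.4% in A10-FMT against HS, and 19.5%, 40.9% and 44.6% in Con-FMT against HS. They were 35.8%, 57.6% and 54.2% in A10-FMT against Con-FMT, and 40.3%, 61.9% and 57.1% in HS+A10 against HS. They were 65.1%, 51.9% and 54.1% in HS+A10 against A10, and 71.4%, 62.5% and 60.0% of the few called genes in A10 against Con.

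Ppard, the receptor of the broadest tissue range, was high in Con and A10 and low in every group with the high-fat diet and STZ. It was at 15.97, 18.1 and 18.7 RPKM in the Con libraries and at 7.0, 10.9 and 9.11 RPKM in the A10 libraries. It was at 2.52, 2.60 and 5.29 RPKM in HS, and at 2.11, 2.32 and 2.29 RPKM in HS+A10. Recipients of AOS-donor microbiota had 1.83, 2.01 and 1.91 RPKM, and those of control microbiota 2.99, 1.85 and 2.85 RPKM. All 6 libraries of Con and A10 were above all 12 of the other groups, and A10 lay between Con and HS without overlap. The only Ppard values of this pattern that can be tested are those of HS+A10 and A10. Ppard fell by 1.61 on the log2 scale in HS+A10 (standard error 0.19, adjusted p = 8.23e-05 from limma), to 2.24 ± 0.11 RPKM against 9.0 ± 1.95 (SD, n = 3), and by 1.59 without A10 replicate 3 (adjusted p = 8.07e-04). The recipient groups overlapped, with a log2 difference of -0.27 in A10-FMT (adjusted p = 0.356). Without tests, the log2 difference was -2.11 in HS against Con (-2.06 without Con replicate 3), -0.91 in A10 against Con, -0.41 in HS+A10 against HS, -0.56 in A10-FMT against HS and -0.29 in Con-FMT against HS. HS replicate 3 was the highest HS library, and without it the difference from HS was -0.14 in HS+A10, -0.29 in A10-FMT and -0.01 in Con-FMT.

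Ppara, the receptor of fatty acid oxidation, was highest in HS+A10 and next in A10-FMT. It was at 12.01, 19.5 and 17.0 RPKM in Con, and at 24.7, 20.2 and 22.3 RPKM in A10. HS libraries had 23.0, 17.5 and 16.7 RPKM, and HS+A10 libraries 42.9, 41.8 and 37.8 RPKM. A10-FMT libraries had 36.4, 29.8 and 28.4 RPKM and Con-FMT libraries 22.4, 14.6 and 30.7 RPKM. HS+A10 was above every other group without overlap, A10-FMT was next and overlapped only Con-FMT, and the ranges of Con-FMT, HS and A10 overlapped each other. Ppara rose by 1.07 in HS+A10 against HS (standard error 0.21, adjusted p = 0.0106) and by 0.84 in HS+A10 against A10 (standard error 0.21, adjusted p = 0.0118), both from limma. The first was no longer called without HS+A10 replicate 1 (1.03, adjusted p = 0.0521) and the second without A10 replicate 2 (0.77, adjusted p = 0.0514). In A10-FMT it rose by 0.70 against HS (adjusted p = 0.0283), a call that was kept without HS replicate 1 and lost without HS replicate 2 or 3 or any A10-FMT replicate (0.60 to 0.77, adjusted p = 0.0522 to 0.0937).

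Against Con-FMT, the direct comparison of the recipients, the Ppara difference in A10-FMT was 0.52 and not called (standard error 0.21, adjusted p = 0.104). Con-FMT replicate 3, the library with acinar RNA, had the highest Ppara of its group, and replicate 2 the lowest. The difference was 0.76 without replicate 3 (adjusted p = 0.0182) and 0.25 without replicate 2 (adjusted p = 0.414). It was called with libraries scaled to equal medians (0.59, adjusted p = 0.0363) and with quantile normalization (0.61, adjusted p = 0.0376), and not with only these groups fitted (adjusted p = 0.236). Con-FMT differed from HS by 0.18 (adjusted p = 0.565), and by -0.06 to 0.45 without a library, none of them called, and A10 from Con by 0.47 with no overlap of the libraries (adjusted p = 0.349).

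Pparg was at 2.67 to 4.44 RPKM in Con, 3.13 to 3.87 in A10, 2.13 to 7.12 in HS, 3.77 to 6.36 in HS+A10 and 2.22 to 4.44 in A10-FMT. Con-FMT had the lowest mean, with libraries at 1.73 to 2.50 RPKM. Its libraries overlapped in all 7 comparisons made, and it was called in none of the 6 that were tested. The difference of Con-FMT from HS was -0.58 (adjusted p = 0.155), and turned on HS replicate 2, the library at 7.12 RPKM. It was -0.17 without that library (adjusted p = 0.641), and -0.86 without HS replicate 3, where it just passed the threshold (adjusted p = 0.049983).

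Among the RXRs, Rxra, the main form of hepatocytes, was higher with the high-fat diet and STZ. It was at 64.5, 60.7 and 65.5 RPKM in Con and 75.4, 65.7 and 65.7 RPKM in A10. It was at 81.2, 82.0 and 80.6 RPKM in HS and 89.3, 83.3 and 91.3 RPKM in HS+A10. A10-FMT libraries had 82.8, 77.1 and 80.4 RPKM and Con-FMT libraries 81.3, 77.6 and 85.5 RPKM. All 12 libraries of the diet and STZ, at 77.1 RPKM or above, exceeded the 6 others, at 75.4 RPKM or below. Rxra rose by 0.35 in HS+A10 against A10 (standard error 0.07, adjusted p = 0.00307 from limma), to 87.9 ± 4.17 RPKM from 68.9 ± 5.60 (SD, n = 3). The difference of HS from Con, without a test, was 0.35, but 0.17 with libraries scaled to equal medians and 0.21 with quantile normalization. The HS, A10-FMT and Con-FMT means lay within 80.1 to 81.4 RPKM.

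Rxrg, best known from muscle and brain, was lowest in the recipients of control microbiota. It was at 3.05, 3.51 and 4.52 RPKM in Con and 4.59, 3.81 and 3.94 RPKM in A10. It was at 5.81, 3.65 and 3.33 RPKM in HS and 4.20, 4.46 and 2.91 RPKM in HS+A10. A10-FMT had 3.58, 3.31 and 2.16 RPKM, and Con-FMT 1.34, 1.93 and 1.02 RPKM, below all 15 other libraries. Rxrg fell by 1.10 in Con-FMT against HS (standard error 0.20, adjusted p = 0.00127 from limma), and by 0.98 without Con-FMT replicate 3 (adjusted p = 0.00559). Between the recipients it was higher by 0.72 in A10-FMT (standard error 0.20, adjusted p = 0.0183). This second call was lost without A10-FMT replicate 1 or 2 or Con-FMT replicate 1 or 3 (0.60 to 0.71, adjusted p = 0.0501 to 0.0708), and with only these groups fitted (adjusted p = 0.0649).

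Rxrb, the most even member, ranged from 7.87 to 11.5 RPKM over the 18 libraries. It was at 8.69, 9.03 and 7.87 RPKM in A10-FMT and at 10.7, 9.85 and 10.9 RPKM in Con-FMT, with no overlap. The log2 difference was -0.27 (standard error 0.08, adjusted p = 0.0283 from limma), but -0.20 and not called with libraries scaled to equal medians (adjusted p = 0.107), and -0.24 without Con-FMT replicate 3 (adjusted p = 0.0861). The call was also lost without A10-FMT replicate 3 (-0.22, adjusted p = 0.10) or Con-FMT replicate 1 (-0.26, adjusted p = 0.0782).

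Ppargc1b, the coactivator PGC1β, lies on chromosome 18 and had its highest levels in HS+A10 and A10-FMT. It was at 0.63, 1.25 and 0.80 RPKM in Con and 1.29, 0.92 and 1.01 RPKM in A10. It was at 0.81, 0.76 and 0.81 RPKM in HS and 2.2, 1.70 and 1.70 RPKM in HS+A10. A10-FMT libraries had 1.98, 1.48 and 1.86 RPKM and Con-FMT libraries 0.79, 0.68 and 0.91 RPKM. The 6 libraries of HS+A10 and A10-FMT were above the 12 others, and these 2 groups overlapped each other. Ppargc1b passed the filter only through these 2 groups, where it is high, which limits what its calls show. Between the recipients Ppargc1b rose by 0.63 in A10-FMT (standard error 0.12, adjusted p = 0.00256 from limma), to 1.77 ± 0.26 RPKM against 0.79 ± 0.12 (SD, n = 3), and by 0.67 without Con-FMT replicate 3 (adjusted p = 0.00386). It rose by 0.67 in HS+A10 against HS (adjusted p = 0.00622) and by 0.62 in A10-FMT against HS (adjusted p = 0.00319), comparisons that share the HS libraries. It rose by 0.47 in HS+A10 against A10 (adjusted p = 0.0133), where the call was lost without A10 replicate 2 (0.41, adjusted p = 0.0609) or HS+A10 replicate 1 (0.39, adjusted p = 0.0684). Con-FMT and HS had the same mean, 0.79 RPKM.

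Ppargc1a, the coactivator PGC1α, which cold, exercise and fasting induce, was below the filter. It was at 0.56 to 0.77 RPKM in Con, 0.82 to 0.91 in A10, 0.63 to 1.31 in HS, 0.53 to 0.94 in HS+A10 and 0.73 to 0.76 in A10-FMT. The Con-FMT libraries, at 1.46, 1.44 and 1.15 RPKM, had the highest mean and did not overlap A10-FMT. With no filter on low genes, its log2 difference in A10-FMT against Con-FMT was -0.43 (adjusted p = 0.0331 from limma), and the call was lost with only these groups fitted (adjusted p = 0.0580). This difference is opposite in sign to that of Ppargc1b.

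**Figure D2:**
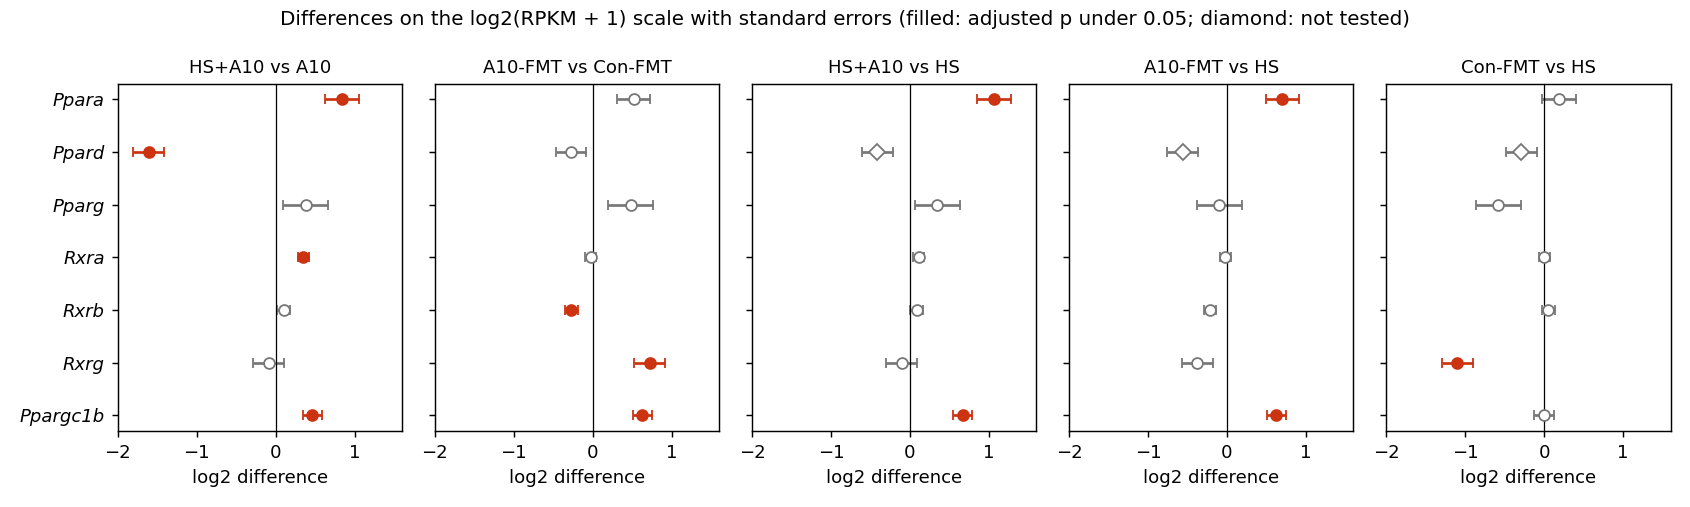
Difference of the first group from the second on the log2(RPKM + 1) scale (horizontal axes) for the 7 tested members in 5 comparisons, with standard errors; filled points were called at an adjusted p under 0.05 and diamonds were not tested. Ppargc1b was called higher in 4 of the 5, at 0.47 to 0.67, and Ppard in HS+A10 against A10 at -1.61. Ppargc1b passed the filter only through HS+A10 and A10-FMT, where it is high, which limits what its calls show.

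Counted over the 7 tested members, 3 were called higher (Ppara, Rxra and Ppargc1b) and 1 lower (Ppard) in HS+A10 against A10, against 13.6% and 7.28% of all genes. Between the recipients, A10-FMT against Con-FMT, 2 were higher (Rxrg and Ppargc1b) and 1 lower (Rxrb), against 6.72% and 12% of all genes. In HS+A10 against HS 2 were higher (Ppara and Ppargc1b) and 0 lower, against 2.95% and 4.37%. In A10-FMT against HS 2 were higher (Ppara and Ppargc1b), against 2.09% of all genes. Ppard is not tested there, and 0 of the other members were lower, against 21%. In Con-FMT against HS 0 were higher and 1 lower (Rxrg), against 4.61% and 19%. In A10 against Con limma called 0 members, with 0.049% of all genes higher and 0.0196% lower, although 1418 genes had an unadjusted p under 0.05, Ppara among them. In HS against Con members are not tested, so no count is given. Ppargc1b, counted as higher above, passed the filter only through HS+A10 and A10-FMT, where it is high, which limits what its calls show.

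Genes of the circadian clock differed between some of the same groups. Dbp, a clock output gene whose level in liver changes strongly with the time of day, was at 0.58 to 0.68 RPKM in Con, 0.36 to 3.41 in A10 and 1.17 to 2.22 in HS. In HS+A10 it was at 47.3 to 97.5 RPKM, in A10-FMT at 48.8 to 98.8 and in Con-FMT at 51.8 to 55.5. Of 14 clock genes tested, HS+A10 had 7 higher and 4 lower against HS (2.95% and 4.37% of all genes), and 7 and 3 against A10 (13.6% and 7.28%). A10-FMT had 8 higher and 4 lower against HS (2.09% and 21% of all genes), and Con-FMT 8 and 3 (4.61% and 19%). HS against Con had 2 higher and 3 lower (15.9% and 1.87% of all genes). A10 against Con had 2 higher, Nr1d1 and Nr1d2, and 0 lower (0.049% and 0.0196%). Their part in the differences of Ppara, Ppargc1b, Ppard and Rxra in these comparisons was not tested. In A10-FMT against Con-FMT limma called 0 of the 14 (3 at an unadjusted p under 0.05). Clock genes were not alike in these groups, however: Per1 was at 4.01 to 8.87 RPKM in A10-FMT and at 10.96 to 14.2 RPKM in Con-FMT, without overlap. The part of the clock in the Ppargc1b difference between the recipients was not tested.

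**Figure D3:**
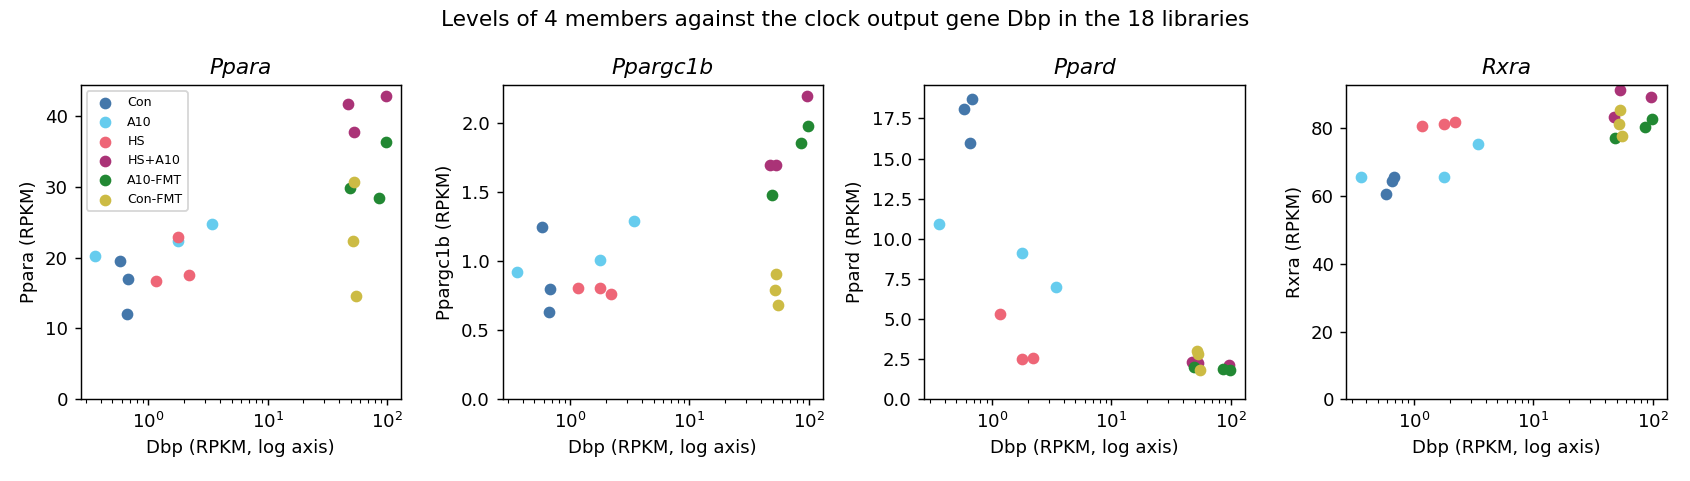
Level in RPKM (vertical axes, from 0) of Ppara, Ppargc1b, Ppard and Rxra against that of Dbp (horizontal, log axis), 1 point a library, colored by group. At a Dbp level of 47.3 RPKM or above, Ppargc1b was at 0.68 to 0.91 RPKM in the 3 Con-FMT libraries and at 1.48 to 2.2 RPKM in the 6 libraries of HS+A10 and A10-FMT. The part of the clock in these levels was not tested.

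Of 26 known target genes of PPARα, all tested, 21 were called higher and 1 lower in HS+A10 against A10, where 13.6% and 7.28% of all genes were. The median log2 difference of the 26 was 1.09, against 0.04 over all genes. Cyp4a14 and Cyp4a10, fatty acid omega-hydroxylases, rose by 6.35 (adjusted p = 3.22e-04 from limma) and 6.07 (adjusted p = 1.64e-04), Vnn1, a pantetheinase, by 4.19 and the acyl-CoA thioesterase gene Acot1 by 2.28. In HS+A10 against HS 12 were higher and 0 lower, against 2.95% and 4.37% of all genes (median 0.66, against -0.03). Acot1 was at 52.7 ± 6.40 RPKM against 16.8 ± 8.95 (SD, n = 3), and Acaa1b and Ehhadh, of peroxisomal oxidation, were higher by 1.24 and 1.20. The other 14 were not called, among them Fgf21, at 2.28 ± 1.21 RPKM in HS+A10 and 6.62 ± 6.49 in HS. In HS against Con 21 were higher and 0 lower, against 15.9% and 1.87% of all genes, a direction already known when the list was used. In that comparison the Ppara difference was 0.24 and the libraries overlapped.

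In A10-FMT against HS 0 of the 26 were higher and 6 lower, where 21% of all genes were lower, and their median was -0.11 against -0.16 over all genes. The 6 included Cyp4a14 (9.16 ± 10.3 RPKM against 92.5 ± 70.4), Cyp4a10, Plin2 and Ehhadh. In Con-FMT against HS 1 was higher and 7 lower, where 19% of all genes were lower (median -0.14, against -0.12), with Plin2, a lipid droplet coat gene, lower by a log2 difference of -1.02. In A10-FMT against Con-FMT 1 was higher and 1 lower, against 6.72% and 12% of all genes. The called targets were Slc27a1, a fatty acid transporter (0.34), and Angptl4, an inhibitor of lipoprotein lipase (-0.74). In A10 against Con limma called 0 of 26 (6 at an unadjusted p under 0.05), and their median was 0.35 against 0.07 over all genes.

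Of 12 PPARγ targets known from fatty liver, 8 were tested. In HS+A10 against A10 5 were higher and 2 lower, where 13.6% and 7.28% of all genes were (median 1.26, against 0.04 over all genes). Cd36, a fatty acid uptake protein, was higher by 2.98, Cidec, of lipid droplet growth, by 2.85 and Mogat1, of triglyceride synthesis, by 2.13. Mogat1 passed the filter through HS+A10 (mean 4.22 RPKM, against 0.087 to 1.28 in the other groups), which limits what its calls there show. Pltp, a phospholipid transfer protein, was lower in HS+A10 against A10, with a log2 difference of -1.51. A10 was the group apart, at 35.1 ± 15.7 RPKM, against 11.1 ± 2.21 in HS+A10 and means of 6.59 to 12.9 in the other groups. In HS+A10 against HS 3 were higher (Cd36, Cidec and Mogat1) and 0 lower, against 2.95% and 4.37% of all genes (median 0.60, against -0.03). In HS against Con 5 were higher and 0 lower, against 15.9% and 1.87%, and earlier results of these data were known when the list was chosen. The counts were 0 and 1 in A10-FMT against HS (Lpl), where 21% of all genes were lower. There 5 of 8 had an unadjusted p under 0.05 from limma, and the median was -0.65 against -0.16 over all genes. In Con-FMT against HS they were 0 and 2 (G0s2 and Lpl), where 19% were lower, with 4 of 8 and a median of -0.42 against -0.12. They were 1 and 1 in A10-FMT against Con-FMT (G0s2 and Fabp4), against 6.72% and 12%, and from limma 0 and 0 in A10 against Con (1 at an unadjusted p under 0.05). The adipocyte sum was higher in HS+A10 (1.55 to 2.61 RPKM, mostly Cfd alone) and in Con-FMT replicate 3 (15.3 RPKM). The part of adipocytes in these differences was not tested.

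**Figure D4:**
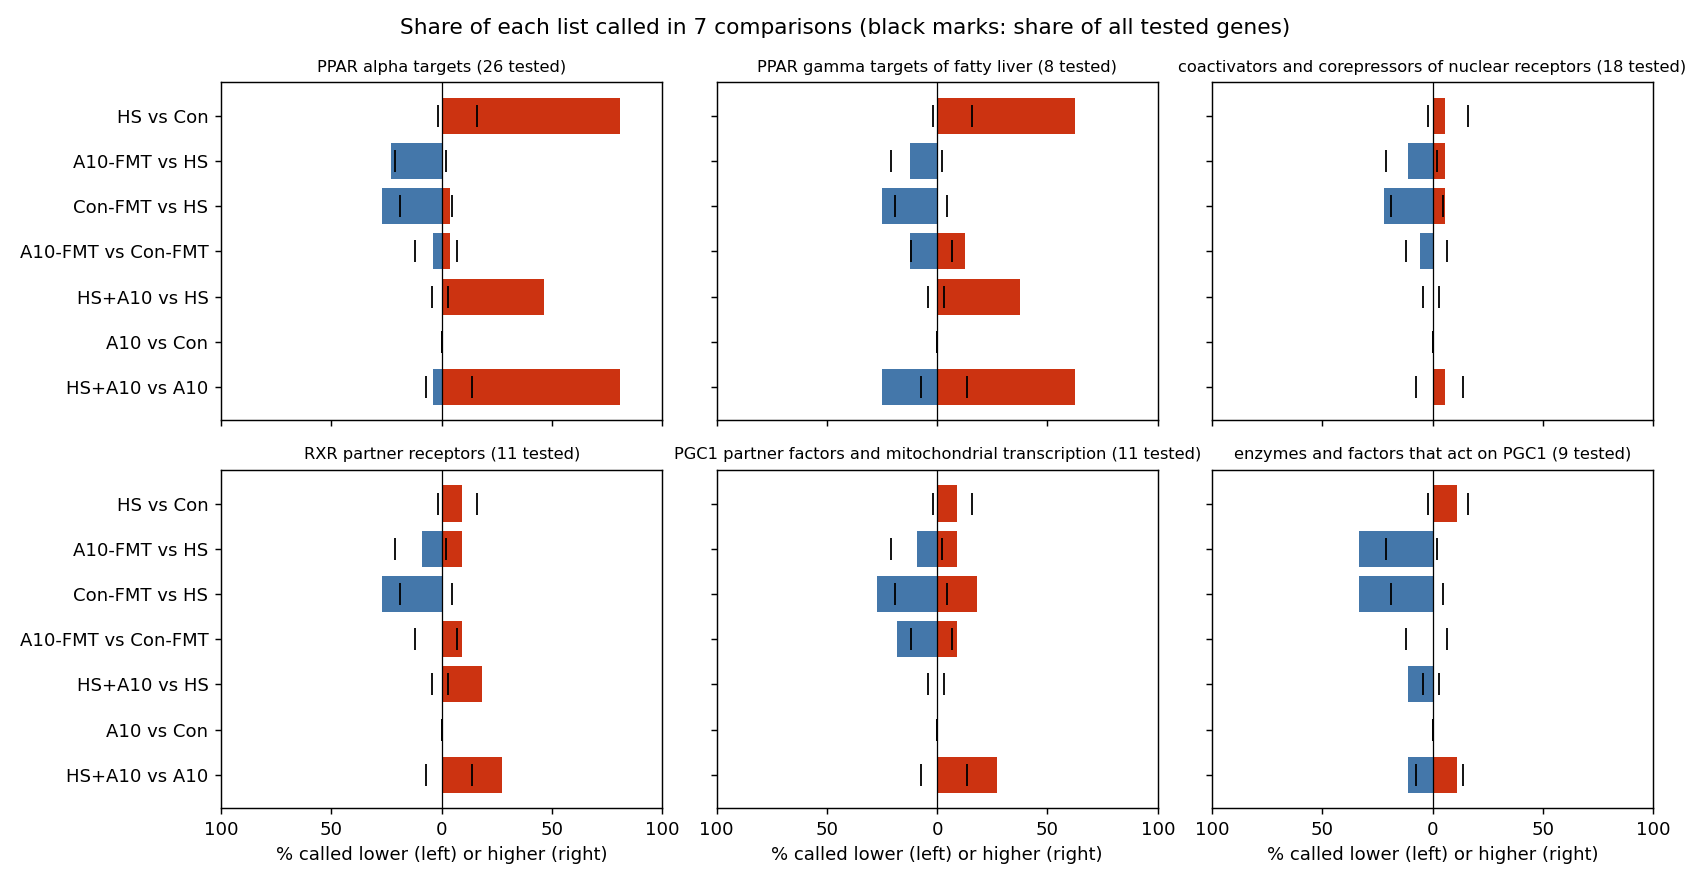
Percent of the tested genes of 6 lists that were called higher (red, to the right) or lower (blue, to the left) in the 7 comparisons (vertical axis); black marks give the same percent over all tested genes. PPARα targets reached 21 of 26 called higher in HS against Con and in HS+A10 against A10. The lists of coactivators and of genes listed as acting on PGC1 had at most 1 called higher in any comparison.

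Of the other receptors that pair with RXR, 11 of 13 were tested. Nr1i3, the xenobiotic receptor CAR, was called in the same comparisons as Ppara, higher by 0.99 in HS+A10 against HS, 0.84 in HS+A10 against A10 and 0.67 in A10-FMT against HS. The counts higher and lower were 2 and 0, 3 and 0, and 1 and 1 in these comparisons. Over all genes the shares were 2.95% and 4.37%, 13.6% and 7.28%, and 2.09% and 21%. The bile acid receptor gene Nr1h4 was higher by 0.44 and 0.55 in the first 2 comparisons. The retinoic acid receptor genes Rara, Rarb and Rarg were the 3 of 11 called lower in Con-FMT against HS, where 19% of all genes were lower, and 0 were higher. Rara, at 6.34 ± 0.67 RPKM against 3.92 ± 0.68, was the 1 called higher in A10-FMT against Con-FMT, and 0 were lower (6.72% and 12% of all genes). HS against Con had 1 higher (Nr1i2) and 0 lower, against 15.9% and 1.87% of all genes. In A10 against Con limma called 0 (2 at an unadjusted p under 0.05).

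Of 11 tested partners of PGC1 and factors of mitochondrial transcription, 1 was higher and 2 lower in A10-FMT against Con-FMT (6.72% and 12% of all genes). The called genes of the list were the estrogen-related receptor gene Esrra, at 13.5 ± 1.18 RPKM against 9.19 ± 1.43, with a log2 difference of 0.52, and Hnf4a (-0.70) and Foxo1 (-0.30). In HS+A10 against A10 3 were higher (Esrra by 0.43, Tfam by 0.39 and Foxo1 by 0.25) and 0 lower, against 13.6% and 7.28%. The counts were 2 and 3 of 11 in Con-FMT against HS, against 4.61% and 19% of all genes. They were 1 and 1 in A10-FMT against HS (2.09% and 21%), and 1 and 0 in HS against Con (15.9% and 1.87%). Limma called 0 in HS+A10 against HS and in A10 against Con, with 3 and 2 at an unadjusted p under 0.05.

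Among 18 tested coactivators and corepressors of nuclear receptors, Lpin1, which encodes lipin 1, a partner of PGC1α and PPARα, was at 24.0 ± 13.4 RPKM in A10-FMT, 114 ± 4.88 in Con-FMT and 9.22 ± 7.37 in HS. It was the 1 gene lower in A10-FMT against Con-FMT (-2.36), against 12% of all genes, and the 1 higher in both recipient groups against HS. There 2 of 18 in A10-FMT and 4 of 18 in Con-FMT were lower, against 21% and 19% of all genes. HS against Con had 1 higher (Carm1), against 15.9% of all genes, and HS+A10 against A10 1 (Ncor1), against 13.6%, with 0 lower in both. Limma called 0 in HS+A10 against HS and in A10 against Con (1 at an unadjusted p under 0.05 in each).

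Of 9 genes listed as enzymes and factors that act on PGC1, Sirt3, a mitochondrial deacetylase, was the 1 called higher in 2 comparisons. These were HS against Con (0.65, with 15.9% of all genes higher) and HS+A10 against A10 (0.56, with 13.6%). Whether Sirt3 acts on PGC1 was not tested. Prmt1, an arginine methyltransferase that modifies PGC1α, was called lower in HS+A10 against A10 (-0.38, with 7.28% of all genes lower) and against HS (-0.41, with 4.37%). With Creb1 and Prkaa1, it was also called lower in A10-FMT against HS (-0.43). These 3 of 9 stand against 21% of all genes lower in A10-FMT, and the 3 lower in Con-FMT against HS (Fbxw7, Prkaa1 and Crtc2) against 19%, and limma called 0 in A10-FMT against Con-FMT and in A10 against Con (2 at an unadjusted p under 0.05 in each).

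Over the 18 libraries, which share the 6 group levels, Ppara and Ppargc1b went together (Pearson r = 0.865 on the log2 scale) and Ppard and Rxra went apart (r = -0.895), as descriptions without a test. Among the 10203 other tested genes the patterns most like Ppara were those of Nr1i3 (r = 0.963), Rab43 (0.950) and Ralgapa2 (0.942). For Ppard they were Adra1b (0.920), Ddhd1 (0.917) and Slc44a1 (0.917), and for Ppargc1b Fnip2 (0.947), Plpp3 (0.924) and Ell3 (0.918). For Rxra they were Tmtc2 (0.923), Cul4a (0.921) and Acad10 (0.918), and for Rxrg Ctnnbip1 (0.919), Itgb5 (0.916) and Fignl2 (0.915). Adra1b, the alpha-1B adrenergic receptor gene, was at 30.4 ± 2.92 RPKM in Con and 30.7 ± 0.94 in A10, whereas Ppard in A10 lay below all Con libraries.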

How the data were processed

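The authors sequenced oligo(dT)-enriched liver RNA, and deposited 1 table of RPKM values with 2 decimals. Their methods name SOAPaligner, and the submitters' processing notes name Bowtie 0.12.2 and the build mm10, so the aligner of the deposited values is not certain. Read numbers per library are not given in the sources used here. RPKM values were used as deposited.

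Genes whose mean reached 1 RPKM were fitted as log2(RPKM + 1) with limma 3.58.1 (lmFit and eBayes with trend, R 4.3.3), with 1 mean for each of the 6 groups. Tests are two-sided, adjusted by Benjamini-Hochberg over 10204 genes, and called at an adjusted p under 0.05. An exact permutation test of 3 libraries against 3 cannot go below p = 0.1 and was not relied on. The study's own test, DEGseq, needs reads and was not used. The procedure was tested on simulated data. Libraries were grouped by GEO's labels. Relative depth came from the steps between low RPKM values. Gene positions are from GENCODE for GRCm38. Promoters were read and figures drawn with Python 3.11.15.

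All members are named. From each of 7 lists of related genes at most 4 called genes per comparison are named, those of the largest change, and for members the 3 genes of the highest correlation. The members and lists, and the 10 marker lists, were chosen with earlier results of these data known. Alternatives were another pseudocount (0.1), no filter, a filter at a mean of 5 RPKM, no variance trend, scaling to equal medians, quantile normalization, the compared groups only, the 12 libraries of the study's 4 groups, a replicate block, and leaving out each library.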

Additional observations from a re-analysis of the deposited data

How the results depend on the processing

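No difference reversed its direction where it was called. Over the alternatives other than leaving out a library, 381 of 398 differences of single members kept their side of the threshold, 15 fell below it and 2 passed it. Without a library 272 of 294 kept their side, 20 fell below it and 2 passed it. These totals include the many differences not called in the main fit, which had no call to lose, so they do not measure how firm the calls were. They also include differences given here without a test. Members are not tested in HS against Con, and Ppard is not tested wherever Con or HS libraries are used. No number of called members is therefore given for HS against Con, nor for A10-FMT against HS, where it would include Ppard. In A10-FMT against HS Ppara lost its call with no filter and with the 12 libraries of the study's groups (adjusted p = 0.0634 and 0.0690 from limma). With a mean of at least 5 RPKM, which removes Pparg, Rxrg and Ppargc1b, the number of members called was 0 in Con-FMT against HS, 1 in A10-FMT against Con-FMT and 1 in HS+A10 against HS. With only the compared groups it was 1 in A10-FMT against Con-FMT, where Ppargc1b kept its call. Without a library the number of members called ranged from 1 to 2 in Con-FMT against HS, 1 to 3 in A10-FMT against Con-FMT and 1 to 2 in HS+A10 against HS. It was 0 to 0 in A10 against Con and 2 to 4 in HS+A10 against A10. The cause of the changes other than the filter was not tested.

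Counts over all genes moved more. HS against Con called 1809 genes, but 884 with median scaling, 876 with quantile normalization, 702 with only the compared groups, 996 with the 12 libraries and 847 to 1599 without a library. A10-FMT against HS called 2358, but 1155, 1114 and 846 with median scaling, quantile normalization and only the compared groups, and 1297 to 2586 without a library. Con-FMT against HS called 2413, but 777 with only the compared groups and 1307 with a mean of at least 5 RPKM (1758 to 2256 without a library). A10-FMT against Con-FMT called 1914, but 687 and 1229 under the same settings and 1178 to 1636 without a library. HS+A10 against HS called 747, but 76 with only the compared groups and 152 to 1233 without a library. HS+A10 against A10 called 2131, and 1325 to 1688 without a library. A10 against Con called 7, but 14 with no filter, 40 with only the compared groups and 0 to 72 without a library. Replicate numbers did not pair the libraries: of 21 correlations between same-numbered libraries of compared groups (-0.0932 to 0.262), 7 were over 0.1, and in 0 of 7 comparisons were all 3. With the replicate block, which shares only a number, HS against Con called 1695 genes and HS+A10 against A10 2006. The number of members called was the same in each comparison where members are tested. Unknown read numbers leave the counting error of low members such as Ppargc1a and Ppargc1b unknown.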
